A study of Mus musculus with 14 samples.

Results

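Apolipoprotein-rich enterocytes were the cells of mouse intestinal organoids in which the transcripts of Apoa1, Apoa4 and Rbp2 summed to at least 20 UMIs (unique molecular identifiers, each standing for 1 captured transcript) and to at least as many as those of the ileal genes Fabp6, Slc10a2 and Slc51b. Of 27324 filtered cells in 3 libraries, 1480 met this rule, and they are called members below. The libraries came from Chgb-mCherry knock-in reporter organoids treated for 6 days with 25 µM Isx-9, a small molecule, from reporter organoids treated for 6 days with 0.05% DMSO as vehicle, from untreated reporter organoids and from untreated wild-type organoids. Each condition was 1 library, so differences have no replicate check, no test was run, and the intervals given are exact 95% intervals that cover counting error only. All organoids grew in ENR medium, which contains EGF, Noggin and R-spondin1. The labels give the tissue as whole organoid and do not name the gut region of origin. The Isx-9 library was passed through the same rule and held 0 members. Members were chosen by their counts, so the levels of the rule genes describe the choice and support nothing.

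Enterocytes of the upper small intestine absorb dietary fat, re-esterify it and export it as chylomicrons, lipoprotein particles built on apolipoprotein B by the microsomal transfer protein and coated with apolipoproteins A-I and A-IV. The same cells take up retinol and hold it on cellular retinol-binding protein 2, the product of Rbp2, while fatty acids travel in the cytosol on Fabp1 and Fabp2. Enterocytes of the ileum, the lowest region, reabsorb bile acids through Slc10a2, carry them on Fabp6 and export them through the Slc51a and Slc51b pair. The transcription factor Gata4 is known in mouse to mark the upper and middle small intestine and to be absent from the distal ileum.

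The promoters of 2 genes of the lipid-absorbing programme and of the ileal Fabp6 are shown because Fabp1 is the marker that the rule did not use, and Rbp2 and Fabp6 are rule genes of members and of ileal-type cells. Each is the window of 250 bases before the transcription start, read 5′ to 3′ on the strand of the gene, from RefSeq on GRCm38.p6. Rbp2 lies at chr9:98490287-98490536 on the plus strand, Fabp1 at chr6:71199629-71199878 on the plus strand and Fabp6 at chr11:43601563-43601812 on the minus strand. Capitals mark matches on either strand to any of 6 motifs. These were AGATAA, which zinc finger factors of the Gata family bind, TTTATG of the caudal homeobox factors, GTTAAT of hepatocyte nuclear factor 1, AGGTCA of many nuclear receptors, TATAAA of the core promoter, and AGGTCANTGACCT. The last is an inverted repeat of the kind that the bile acid receptor binds, with 1 mismatch allowed on each side of its middle base.
Rbp2: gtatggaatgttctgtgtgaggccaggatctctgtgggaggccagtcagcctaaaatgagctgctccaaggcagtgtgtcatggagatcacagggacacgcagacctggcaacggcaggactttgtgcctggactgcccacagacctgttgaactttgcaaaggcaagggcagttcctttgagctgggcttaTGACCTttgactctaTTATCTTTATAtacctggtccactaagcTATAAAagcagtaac
Fabp1: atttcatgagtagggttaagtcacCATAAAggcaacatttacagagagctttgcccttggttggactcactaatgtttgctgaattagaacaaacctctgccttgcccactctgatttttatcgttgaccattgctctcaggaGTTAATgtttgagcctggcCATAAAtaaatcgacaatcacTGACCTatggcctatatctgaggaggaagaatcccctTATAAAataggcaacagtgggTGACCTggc
Fabp6: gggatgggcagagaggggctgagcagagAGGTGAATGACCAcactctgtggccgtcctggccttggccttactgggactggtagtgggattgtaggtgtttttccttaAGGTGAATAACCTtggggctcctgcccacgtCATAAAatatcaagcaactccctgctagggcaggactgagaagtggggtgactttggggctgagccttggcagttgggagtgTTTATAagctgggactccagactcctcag

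The Rbp2 window held AGGTCA on the minus strand 58 to 53 bases before the start, AGATAA on the minus strand 43 to 38 bases before it, and TATAAA on the plus strand 15 to 10 bases before it. A further TATAAA on the minus strand shared a base with the AGATAA match. The Fabp1 window held TTTATG on the minus strand at 226 to 221 and at 88 to 83 bases before the start. It held AGGTCA on the minus strand at 67 to 62 and at 9 to 4. On the plus strand it held GTTAAT at 107 to 102 and TATAAA at 30 to 25. The Fabp6 window held the inverted repeat at 222 to 210 and at 142 to 130. On the minus strand it held TTTATG at 111 to 106 and TATAAA at 29 to 24. Such short motifs are common: of 32851 promoter windows of this length, 9.99% held AGATAA, 10.8% TTTATG, 6.43% GTTAAT, 14.02% AGGTCA, 12.4% TATAAA and 0.618% the inverted repeat with its mismatches. The windows of Apoa1 (chr9:46228380-46228629) and Apoa4 (chr9:46240594-46240843), which stand with Apoc3 in a cluster of 14829 bases on chromosome 9, held 0 matches to these letters. These matches are descriptions of letters, not of bound sites.

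The 4 single-cell libraries held 10016 filtered cells for Isx-9, 8969 for DMSO, 9610 for the untreated reporter and 8745 for wild type, with medians of 9374, 13388, 12633 and 15007 UMIs per cell in this order. The deposited counts summed to 116046871, 132150411, 134346948 and 139401464 UMIs in this order. Any 2 libraries shared 32 to 52 cell barcodes, and 0 barcodes of members were shared. Transcripts of members' genes also occurred outside them: a UMI of Apoa1 was found in 23.8% of cells marked as goblet cells in the DMSO library, 23.9% in the untreated reporter and 16.4% in wild type, at medians of 13388, 12569.5 and 14039 UMIs. In members these shares were 91.9%, 90.4% and 91.1%, at medians of 15558.5, 15306 and 14369 UMIs. Goblet-marked cells reached the rule in 8, 8 and 5 cases, and the part of free RNA in members was not tested beyond these values.

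Members made up 0 of 10016 cells in the Isx-9 library, for which 3 cells would be 0.0300% and the exact 95% upper limit is 0.0368%. They were 592 of 8969 cells with DMSO (6.60%, 6.10 to 7.13), 551 of 9610 in the untreated reporter (5.73%, 5.28 to 6.22) and 337 of 8745 in wild type (3.85%, 3.46 to 4.28). The interval of the wild-type library lay below those of the other 2 libraries that held members, whose intervals overlapped. In the Isx-9 library the highest sum of the 3 rule genes in any cell was 12 UMIs, against 1150 with DMSO, 845 in the untreated reporter and 761 in wild type. The Isx-9 library was shallower, so each cell was also thinned at random to 5000 UMIs, which left out 984, 1065, 1115 and 1123 shallower cells of the Isx-9, DMSO, untreated reporter and wild-type libraries. After thinning, 0 of 9032 cells with Isx-9 met the rule, with a highest sum of 4, against 266 of 7904 with DMSO (3.37%), 222 of 8495 in the untreated reporter (2.61%) and 134 of 7622 in wild type (1.76%). The same cells before thinning gave 5.85%, 5.30% and 3.27% for DMSO, the untreated reporter and wild type. The order of the libraries was the same before and after thinning.

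**Figure D1:**
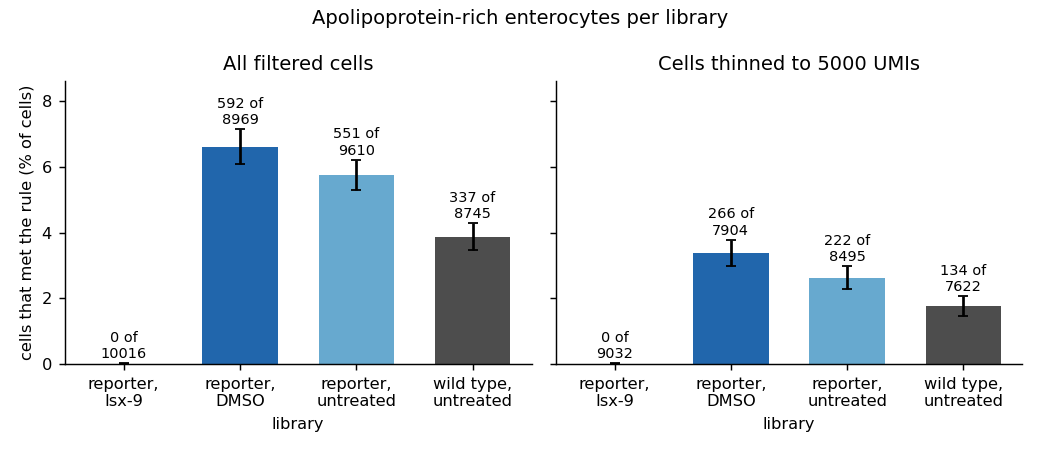
Share of filtered cells that met the rule in each library (percent of cells, bars) with exact 95% binomial intervals, for all filtered cells on the left and for cells thinned to 5000 UMIs on the right. The Isx-9 library has 0 members in both panels, and wild type has the lowest share of the 3 libraries with members, 3.85% before and 1.76% after thinning.

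Across all cells, members or not, the transcripts that mark these enterocytes were scarce in the Isx-9 library. Fabp1, the liver-type fatty acid-binding protein, had 36 UMIs in all Isx-9 cells (0.319 CPM, UMIs per 1000000 UMIs of the cells summed) against 76698 UMIs with DMSO (604 CPM), a ratio of 0.000529 (0.00037 to 0.000732). Apoa1 was at 6.11 CPM with Isx-9 against 265 CPM with DMSO, Apoa4 at 2.29 against 85.6 CPM, and Rbp2 at 16.6 against 309 CPM. Apoc3, which regulates the clearance of triglyceride-rich particles, was at 2.62 CPM with Isx-9 and 61.3 CPM with DMSO. Each of these 5 genes was lower in the Isx-9 library, and the ratio nearest to 1 was that of Rbp2, at 0.0537.

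Not every gene of fat handling followed them. Apob, the structural protein of the chylomicron, was at 107 CPM with Isx-9 against 58.9 CPM with DMSO, a ratio of 1.81 (1.76 to 1.87). Mttp, the transfer protein that loads it with lipid, was at 27.5 CPM against 78.7 CPM, a ratio of 0.35, and Fabp2 at 53.1 against 376 CPM, a ratio of 0.141. The brush border enzyme Sis (sucrase-isomaltase) was at 57.7 against 115 CPM, Anpep (aminopeptidase N) at 52.8 against 52.2 CPM and the upper-intestine factor Gata4 at 26.2 against 26.5 CPM. Members held 88.0%, 83.1% and 82.5% of all Fabp1 UMIs in the DMSO, untreated reporter and wild-type libraries, but 32.6%, 31.2% and 20.9% of Apob and 9.83%, 8.58% and 8.56% of Gata4. They held 7.02%, 6.45% and 3.80% of all UMIs. The makeup of the Isx-9 library differed as a whole, with 14 enteroendocrine markers summing to 11285 CPM against 2256 CPM with DMSO, and its part in these ratios was not tested.

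The rule genes were split unevenly among members. Rbp2 gave the most UMIs of the 3 in 316 members with DMSO, 306 in the untreated reporter and 150 in wild type, and Apoa1 in 246, 219 and 173. Apoa4 led in 21, 21 and 8 members and was at 0 UMIs in 79, 98 and 66. Apoa1 was at 0 UMIs in 48, 53 and 30 members and Rbp2, which is not an apolipoprotein, in 15, 10 and 27. The name apolipoprotein-rich thus does not describe every member. Apoa1 averaged 3387 CPM over the DMSO members, 2725 CPM over the untreated reporter members and 3563 CPM over the wild-type members. Rbp2 was at 3790.4, 3333 and 2643 CPM and Apoa4 at 1081, 799.5 and 679 CPM in the same order. The sum of the 3 had a median of 59, 55 and 62 UMIs per member.

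Fabp1, a marker that the rule did not use, was at 7561 CPM in DMSO members, 6269 CPM in untreated reporter members and 7068 CPM in wild-type members. Cells with neither marker set had 78.0, 87.9 and 59.9 CPM, so members were 96.9-fold, 71.3-fold and 118-fold higher. A Fabp1 UMI was found in 92.6%, 92.4% and 83.4% of members and in 26.7%, 19.1% and 16.0% of goblet-marked cells. Near the threshold Fabp1 was lower than over all members. Cells with a sum of 15 to 19 UMIs, just outside the rule, had 1300.1, 1230.2 and 1131 CPM of Fabp1, and cells with 20 to 24 UMIs, just inside it, had 1669, 1956 and 1474 CPM. There were 89, 93 and 63 cells just outside and 68, 73 and 39 just inside.

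Against cells with neither marker set, members had more of most absorptive lists and less of the crypt, goblet, Paneth and tuft lists. Of 12852 genes with at least 50 UMIs over both classes in each library, 827 (6.43%) were at least 2-fold higher in members in every library and 1581 (12.3%) at least 2-fold lower. The median gene was lower in members, by 0.38, 0.34 and 0.26 on the log2 scale in DMSO, untreated reporter and wild type, and relative to that median the counts were 1197 higher and 931 lower. The genes below are given without that centring. Members' median depth was 15558.5, 15306 and 14369 UMIs against 13266, 12535 and 14994 UMIs in the other cells, and the cells with the highest 8% of doublet scores made up 8.78%, 7.80% and 10.1% of members against 7.20%, 7.54% and 7.32% of the other cells.

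Of 17 genes of chylomicron assembly, 15 could be compared and 10 were at least 2-fold higher in members in every library, with list medians of 4.64-fold, 3.90-fold and 4.81-fold. Apoc3 was at 721, 634 and 615 CPM in members against 11.1, 10.7 and 5.04 CPM in the other cells. Mttp was at 509, 425 and 436 CPM against 45.9, 48.1 and 30.6 CPM. Apob was at 273, 252 and 231 CPM against 42.5, 38.2 and 33.3 CPM. For each of these 3 genes the lowest library value of members was above the highest library value of the other cells. These are sums over cells and do not compare single cells. The cargo receptor gene Surf4 and the Mia2 and Mia3 genes, which serve the export of large particles from the endoplasmic reticulum, were under 2-fold. Apoc2, the activator of lipoprotein lipase, was nearly silent in members, at 0.672, 0.477 and 0.776 CPM.

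Of 13 comparable genes of fatty acid and sterol uptake, 7 were higher by this rule. Fabp2, the intestinal fatty acid-binding protein, was at 2040.5, 1722 and 1650.5 CPM in members against 250, 274 and 209 CPM in the other cells. The sterol transporters Npc1l1, Abcg5 and Abcg8 were among the 7, with Npc1l1, the target of ezetimibe, at 80.8, 67.3 and 78.0 CPM against 10.7, 11.0 and 8.38 CPM. Cd36, a fatty acid translocase of the upper intestine in mouse, was at only 6.83, 4.53 and 3.49 CPM in members. Of 24 genes of triglyceride and ester synthesis, 10 were higher and 2, Mgll and Fads1, were lower. Dgat1, which adds the last acyl chain to triglyceride, was at 346, 320 and 305 CPM against 55.3, 56.1 and 39.3 CPM, and Mogat2, which re-esterifies monoacylglycerol, at 128, 104 and 115 CPM against 7.85, 8.53 and 5.53 CPM.

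Retinol genes were mixed. Of 15 comparable genes 6 were higher, among them the retinol dehydrogenase Rdh7 at 117, 108 and 103 CPM in members against 4.86, 4.81 and 3.02 CPM, and Aldh1a1, which makes retinoic acid, at 587, 504 and 308 CPM against 21.6, 22.9 and 12.3 CPM. Lrat, which esterifies retinol, and Bco1, which cleaves beta-carotene, were near 0 in members, at 1.68, 3.22 and 2.52 CPM for Lrat and 2.91, 2.51 and 4.08 CPM for Bco1. Isx, the homeobox repressor of Bco1 in mouse (a gene symbol unrelated to the compound Isx-9), was at 108, 110 and 105 CPM in members against 81.9, 84.4 and 86.5 CPM.

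Of 27 comparable genes under PPAR alpha or of fatty acid oxidation, 13 were higher and 0 lower. Creb3l3, a membrane-bound factor that in mouse activates Apoa4 and Apoc2 in lipid metabolism, was at 190, 160 and 144 CPM in members against 3.05, 2.63 and 1.94 CPM. The lists of other absorptive functions followed. There were 15 of 17 brush border hydrolases higher (Sis at 1080.5, 911 and 1543 CPM against 39.1, 37.9 and 67.1 CPM), 8 of 11 sugar genes, 9 of 13 amino acid and peptide transporters, 11 of 19 microvillus genes and 26 of 28 xenobiotic genes. In cholesterol synthesis 1 of 19 genes was higher, Insig1. Of the enterocyte and regional transcription factors 6 of 31 were higher, among them Hnf4g, Maf and Nr1i3, and Tfcp2l1 was among the lower ones.

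Lower in members were 8 of 10 stem cell markers, 15 of 16 proliferation genes, 9 of 10 goblet, 9 of 9 comparable Paneth and 9 of 10 tuft markers. Of 11 injury-like markers 4 were higher, Ly6d, Sprr1a, Sprr2a1 and S100a6, and 1, Ly6e, was lower, beside 6.43% of all genes higher. Of 14 enteroendocrine markers 3 were lower, Chga, Neurod1 and Tph1, and 1, Gip, was higher. The enteroendocrine list summed to 3673, 1674 and 3869 CPM in members against 2151, 2584 and 2890.2 CPM in the other cells with the hormone-holding members described below included. These lists also show what else the member droplets held. The Paneth defensins Defa24 and Defa30 summed to 5 UMIs or more in 18.9%, 19.4% and 23.7% of members, and Muc2, Fcgbp and Clca1 of goblet cells in 2.20%, 2.36% and 2.67%. The injury-like markers Ly6d and Sprr1a did so in 8.95%, 9.80% and 12.2%. The proliferation genes Mki67 and Top2a did so in 6.76%, 7.62% and 8.61%. The leukocyte marker Ptprc was at 0 in members of all 3 libraries. The part of free RNA or doublets in these values was not tested.

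**Figure D2:**
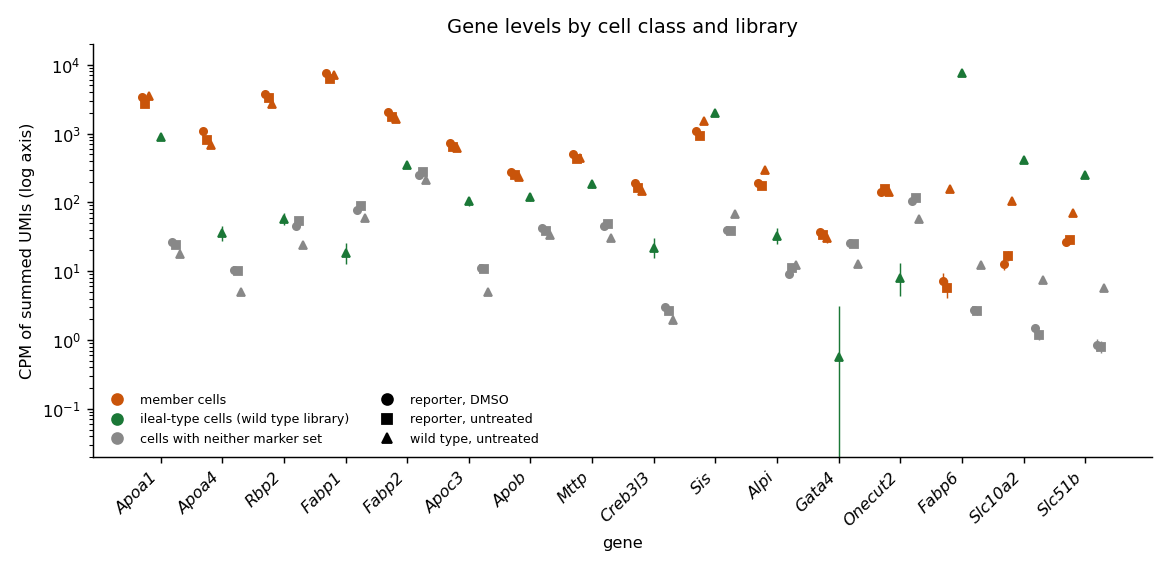
Levels of 16 genes (CPM of summed UMIs, log axis) in members, in ileal-type cells of the wild-type library and in cells with neither marker set, with a symbol for each library and exact 95% Poisson intervals. Fabp1 stands at 6269 to 7561 CPM in members, against 18.6 CPM in ileal-type cells. Fabp6, Slc10a2 and Slc51b are highest in ileal-type cells, which were chosen by the counts of these genes.

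Members were also compared with ileal-type cells, with at least 20 UMIs of Fabp6, Slc10a2 and Slc51b and more of these than of the rule genes. They numbered 7 with DMSO, 3 in the untreated reporter and 100 in wild type. Over all 3 libraries 39 of 7865 genes (0.496%) were at least 2-fold higher in members in each library and 87 (1.11%) at least 2-fold lower, or 102 and 34 relative to the median gene. By the geometric mean of the 3 ratios, the 15 genes highest in members were Fabp1, Gip, Reg1, Rbp2, Gstm1, Cck, Gstm3, Cbr3, Apoa4, Adh1, Fabp2, Gcg, Leap2, Arg2 and Onecut2, of which the hormones Gip, Cck and Gcg came from a few cells described below. The 15 lowest were Fabp6, Tmigd1, Slc10a2, Ly6a, Mgat4c, Reg3b, Prss23, Il1rn, Defb37, Mboat1, Prss30, Pibf1, Capn2, Ceacam1 and Ly6d. Rbp2, Apoa4, Fabp6 and Slc10a2 were used to choose the classes, so their places describe the choice. Gcg and Ly6d were not 2-fold apart in every library. With so few reporter cells in the ileal class, the values that follow are from wild type. There 350 of 8107 genes (4.32%) were at least 2-fold higher in members and 166 (2.05%) at least 2-fold lower.

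In wild type Fabp1 separated members from ileal-type cells far more than the rule genes did. It was at 7068 CPM in members against 18.6 CPM (33 UMIs) in ileal-type cells, 381-fold higher (271 to 554). The rule gene Rbp2 was 46.5-fold higher, Apoa4 19.2-fold and Apoa1 4.04-fold. Reg1, a C-type lectin, was at 1625 CPM in members against 2.81 CPM (5 UMIs), 578-fold higher (248 to 1781). Fabp2 was at 1650.5 against 353 CPM, 4.67-fold higher, and Apoc3 at 615 against 103 CPM, 5.95-fold higher. Leap2, a liver and small-intestine peptide that antagonises the ghrelin receptor, was at 127 against 3.37 CPM, 37.6-fold higher, and Arg2, a mitochondrial arginase, at 228 against 20.8 CPM.

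In wild type most comparable genes of fat export differed by less than 2-fold between the 2 classes, but their levels were not equal. The chylomicron list summed to 2969 CPM (2922 to 3016) in members against 1684 CPM (1625 to 1746) in ileal-type cells. The counts below stand beside 4.32% of all genes at least 2-fold higher in members. Of 15 comparable chylomicron genes 2, Mttp and Apoc3, were 2-fold higher in members, with a list median of 1.45 beside a median of 0.988 over all genes. Apob was at 231 CPM in members against 119 CPM in ileal-type cells, 1.94-fold higher (1.67 to 2.25). Dgat1 was at 305 against 207 CPM, Mogat2 at 115 against 84.3 CPM and Npc1l1 at 78.0 against 59.0 CPM. Of 23 comparable genes of triglyceride and ester synthesis 3 were higher and 0 lower, and of 26 genes of fatty acid oxidation 3 were higher, Acaa1b, Acot1 and Creb3l3. Cholesterol synthesis had 0 of 19 genes past 2-fold in either direction. Sis was lower in members, at 1543 against 1973 CPM. In the 27 members of ileal pattern described below, Sis was at 5184 CPM and Apob at 487 CPM. In the 196 members with 0 UMIs of Fabp6, Slc10a2 and Slc51b, Sis was at 876 CPM and Apob at 176 CPM.

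Lists of upper-intestine and detoxification genes, which share Cyp3a11, Cyp2b10 and Gstm3, also differed. Of 17 comparable duodenal and proximal genes 10 were 2-fold higher in wild-type members and 0 lower, with a median of 3.97. Gata4 was at 30.1 CPM in members against 0.562 CPM in ileal-type cells (1 UMI), with a counting interval of the ratio of 9.46 to 2127. Onecut2, a homeobox factor, was at 142 against 7.87 CPM, 18.0-fold higher (10.7 to 33.1). Cybrd1, the duodenal ferric reductase, was at 34.7 against 1.69 CPM (3 UMIs), with a ratio of 20.6 (6.94 to 101). Adh1, an alcohol dehydrogenase that also oxidises retinol, was at 639 against 47.2 CPM, 13.5-fold higher. The duodenal factor Pdx1 was at 13.4 against 1.12 CPM (2 UMIs), with an interval of the ratio of 3.17 to 100.

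Of 27 comparable xenobiotic genes 13 were 2-fold higher in wild-type members and 1, the efflux pump Abcb1a, was lower, with a median of 2.00. Lists of other cell types differed as well, with 10 of 10 comparable enteroendocrine markers higher in members (median 35.9), and 4 of 6 Paneth markers higher and 1 lower (median 2.498). Few cells carried these transcripts. In wild type 11 of 337 members, described below, held 92.6% to 99.7% of the members' UMIs of Gip, Cck, Gcg, Ghrl and Chgb. A single cell held 42.6% of the wild-type members' Defa24 and Defa30 UMIs. The glutathione transferases Gstm1, at 1001 against 87.7 CPM, and Gstm3, at 467 against 41.0 CPM, were each 11.4-fold higher. Ephx2, a soluble epoxide hydrolase, was 13.0-fold higher at 87.9 against 6.75 CPM, and Cyp3a11 7.47-fold higher at 92.4 against 12.4 CPM. Nr1i3, the receptor CAR that drives Cyp2b10 in mouse liver, was at 52.8 against 11.2 CPM, 4.69-fold higher, and Cyp2b10 at 60.2 against 11.2 CPM, 5.35-fold higher. The brush border phosphatase Alpi was 8.97-fold higher at 292 against 32.6 CPM, and the endopeptidase Mme 6.56-fold higher at 47.9 against 7.31 CPM.

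Lower in wild-type members were 5 of 9 comparable genes of bile acid handling and the ileum, and 0 were higher. Slc51a, the partner of the rule gene Slc51b, was at 136 CPM in members against 390 CPM in ileal-type cells. The bile acid receptor Nr1h4 was at 43.1 against 128 CPM, and its target Fgf15, the hormone that represses bile acid synthesis in the liver, at 9.12 against 41.0 CPM. The vitamin B12 receptor Cubn was at 15.1 against 38.8 CPM. The antimicrobial lectin Reg3b was at 279 against 1855 CPM, a ratio of 0.150. A few members of ileal pattern, described next, carry much of these member values: 41 of 47 UMIs of Fgf15, 49 of 78 of Cubn and 1030 of 1438 of Reg3b. Without them and the hormone-holding members, Fgf15 was at 1.31, Cubn at 6.33, Reg3b at 88.9 and Slc51a at 89.1 CPM in wild-type members. Osr2 was at 21.3 against 87.1 CPM. Hnf4a, Isx and Gata6 differed by less than 2-fold between the 2 classes, with Hnf4a at 128 against 178 CPM.

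A group of 27 wild-type members, set apart after the values were seen, had 20 or more UMIs of the ileal rule genes and passed the rule because Apoa1, Apoa4 and Rbp2 together were at least as many. Such cells numbered 2 with DMSO and 3 in the untreated reporter. The 27 cells averaged 11167 CPM of Apoa1, against 1779 CPM in the 196 wild-type members with 0 ileal UMIs and 882 CPM in ileal-type cells. Their Fabp1 was at 16.9 CPM, against 7385 CPM in the 196 members and 18.6 CPM in ileal-type cells. Gata4 was at 4.82 CPM against 32.7 and 0.562 CPM, Onecut2 at 9.65 against 169 and 7.87 CPM, and Reg3b at 2485 against 19.1 and 1855 CPM, in the same order. Fabp1 and Onecut2 of the 27 cells were close to the levels of ileal-type cells, and Reg3b was above its level there. Gata4 rested on 2 UMIs, with a counting interval of 0.584 to 17.4 CPM. That interval lay below the one of the 196 members (26.5 to 39.9) and overlapped the one of ileal-type cells (0.0142 to 3.13). Other lipid genes were above the ileal-type level: Fabp2 was at 1715 CPM in the 27 cells against 1325 CPM in the 196 members and 353 CPM in ileal-type cells, Apoc3 at 733 against 438 and 103 CPM, Apob at 487 against 176 and 119 CPM, and Mttp at 331 against 390 and 183 CPM. Their Sis, at 5184 CPM, was above both of the other classes (876 and 1973 CPM). So were Anpep, at 1510 against 204 and 145 CPM, and the sugar gene Slc5a1, at 1059 against 357 and 327 CPM. Higher levels were thus not particular to lipid genes. Cdx1 was below both classes, at 62.7 against 92.7 and 146 CPM. These cells thus had high Fabp2, Apoc3 and Apob and low Fabp1, none of which the rule used. Their high Apoa1 describes the choice, as they passed the rule through its 3 genes. Of the 27 cells 1 was also among the hormone-holding members described next.

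Members that also held many enteroendocrine transcripts were a further exception. Taking 20 or more summed UMIs of 14 enteroendocrine markers, a limit set after the values were seen, there were 18 such members with DMSO (3.04%), 9 in the untreated reporter (1.63%) and 11 in wild type (3.26%). Of these 38 cells, 26 had at most 3 UMIs of Apoa1 and Apoa4 together, and met the rule through 20 to 48 UMIs of Rbp2, with at most 11 UMIs of Fabp1. Gip, the incretin of K cells, reached 100 UMIs or more in 21 of the 38 and up to 4894 UMIs in a single cell. The 38 cells held 99.6%, 98.9% and 99.7% of the members' Gip UMIs in the DMSO, untreated reporter and wild-type libraries and 94.4%, 97.7% and 98.4% of Cck, but 2.37%, 2.08% and 1.86% of Rbp2. Of them 3, 0 and 3 were among the cells with the top doublet scores.

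Without these cells, Gip in members was at 12.4, 9.81 and 4.82 CPM, against 3099, 861 and 1499 CPM with them. Rbp4, the plasma retinol carrier, was at 1.74, 4.60 and 1.004 CPM without them against 58.3, 37.6 and 120 CPM with them, and these cells held 97.1%, 87.9% and 99.2% of its UMIs in members. Fabp1 was at 7661, 6328 and 7256 CPM without them. Leaving out both kinds left 572, 539 and 300 members, whose Fabp1 was at 7684, 6371 and 7888 CPM and whose Apoa1 was at 3448, 2734 and 2970.0 CPM. In wild type Fabp1 was then 425-fold, Reg1 650-fold and Onecut2 19.9-fold above ileal-type cells.

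**Figure D3:**
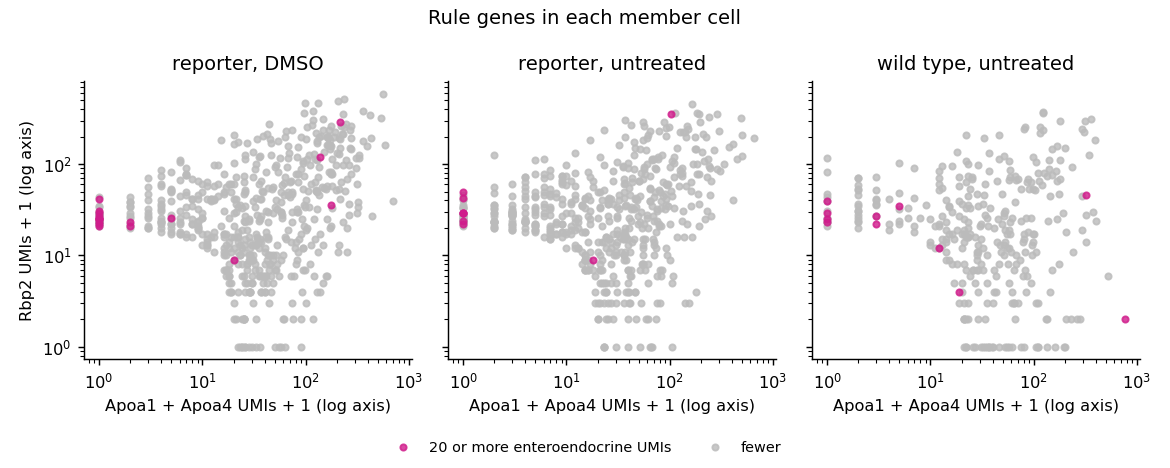
Rbp2 UMIs (vertical, log axis) against the sum of Apoa1 and Apoa4 UMIs (horizontal, log axis), each plus 1, with a point for every member of the DMSO, untreated reporter and wild-type libraries. The 38 members with 20 or more enteroendocrine UMIs are coloured, and 26 of them lie at the left edge with at most 3 UMIs of Apoa1 and Apoa4.

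Within each library, members were ordered by the share of their UMIs that came from the rule genes and cut into terciles of equal size. Genes of absorption that the rule did not use were higher from tercile to tercile, and crypt genes lower. The chylomicron list without the rule genes summed to 1820.3, 3376 and 5947 CPM from the lowest to the highest tercile with DMSO, 1726, 2807 and 5767 CPM in the untreated reporter and 1904, 3031 and 5904 CPM in wild type. Brush border hydrolases summed to 979, 3049 and 5231 CPM, 1015, 2290.1 and 4742 CPM, and 1710.1, 4002 and 7996 CPM in the same libraries. The order was the same in all 3 libraries.

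Single genes gave the same picture. Apoc3 was at 124, 700.1 and 1952 CPM from the lowest to the highest tercile with DMSO, 99.0, 388 and 2176 CPM in the untreated reporter and 125, 528 and 2192 CPM in wild type. Cyp3a11 was at 15.5, 107 and 404 CPM with DMSO, 16.6, 52.6 and 328 CPM in the untreated reporter and 16.1, 70.8 and 353 CPM in wild type. Cd36, low over all members, was at 1.70, 4.36 and 20.5 CPM, 1.30, 5.44 and 10.1 CPM, and 1.18, 3.48 and 10.2 CPM. The stem cell marker Olfm4 ran the other way, at 603, 312 and 70.8 CPM, 313, 236 and 140.1 CPM, and 525, 308 and 73.4 CPM.

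Regional factors did not follow this order. Gata4 was at 37.1, 37.0 and 37.1 CPM with DMSO, 34.8, 34.8 and 31.0 CPM in the untreated reporter and 31.1, 27.8 and 31.6 CPM in wild type. Isx was at 100.4 to 124 CPM in all 9 groups and Onecut2 at 123 to 162 CPM. The proliferation list summed to 881, 339 and 199 CPM, 946, 399 and 228 CPM, and 1154, 642 and 181 CPM, so the lowest terciles held most of the cycling transcripts. Depth ran with the order as well: the median member had 18764.5, 14487 and 7844 UMIs with DMSO, 18424, 15308 and 6090 in the untreated reporter and 19952, 13957.5 and 4131 in wild type. A fixed minimum of 20 UMIs admits a low share only in deep cells, and the part of depth in these trends was not tested.

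**Figure D4:**
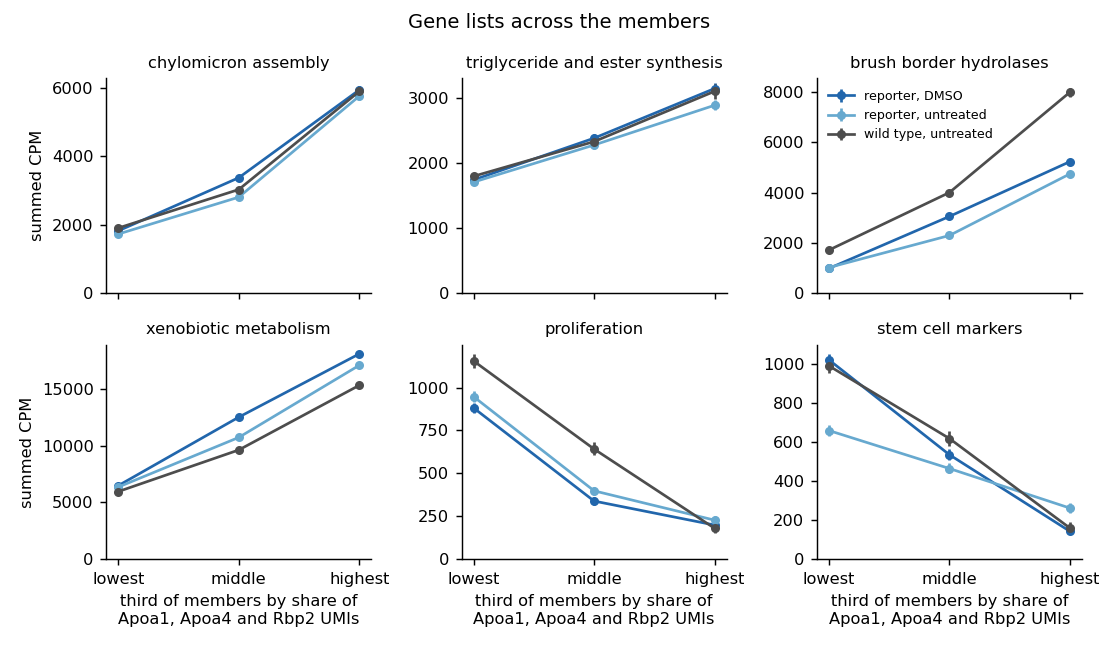
Summed CPM of 6 gene lists (vertical) in terciles of members by the share of Apoa1, Apoa4 and Rbp2 among their UMIs (horizontal), with a line for each library and exact 95% Poisson intervals. Chylomicron, triglyceride, brush border and xenobiotic lists are highest in the highest tercile, and proliferation and stem cell lists are lowest there, in all 3 libraries.

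The balance of Rbp2 against Apoa1 and Apoa4 set apart 3 sorts of members. Leaving out the hormone-holding cells, Rbp2 gave at least 90% of the rule UMIs in 69 members with DMSO, 89 in the untreated reporter and 38 in wild type, and at most 10% in 75, 59 and 78. The other 430, 394 and 210 members were mixed. The split uses the rule genes, and it and the genes given here were chosen after the values were seen, so the values are descriptions. Malat1, a nuclear RNA, and depth differed between the sorts and are given beside them.

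Fabp1 and Reg1 were highest in the mixed members. Fabp1 was at 2874 CPM in Rbp2-dominant, 9453 CPM in mixed and 963 CPM in Apoa-dominant members with DMSO. It was at 2996, 8143 and 711 CPM in the untreated reporter and at 5205, 10033 and 243 CPM in wild type. Reg1 was at 145, 2496 and 118 CPM with DMSO, 337, 1394 and 197 CPM in the untreated reporter and 1326, 2259 and 157 CPM in wild type. Apoc3, which neighbours Apoa1 and Apoa4 in the genome, was at 40.4, 826 and 1040.0 CPM with DMSO, 48.6, 807 and 964 CPM in the untreated reporter and 63.8, 781 and 601 CPM in wild type.

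Rbp2-dominant members were highest in Dmbt1, a secreted scavenger receptor protein, at 526, 119.5 and 19.6 CPM with DMSO, 485, 129.9 and 16.3 CPM in the untreated reporter and 636, 133 and 20.7 CPM in wild type. The urea cycle gene Cps1 ran the same way, at 272, 171 and 76.0 CPM, 299, 163 and 91.6 CPM, and 316, 188 and 112 CPM. The mitochondrial chaperone Hspd1 was at 685, 329.9 and 143 CPM with DMSO, and the galectin family gene Lgals2 at 4511, 2204 and 1643 CPM, with the same order in the other libraries.

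Apoa-dominant members were highest in genes of the upper villus. Krt20, a keratin of fully mature enterocytes, was at 51.4, 194 and 593 CPM from Rbp2-dominant to Apoa-dominant members with DMSO, 31.0, 169 and 668 CPM in the untreated reporter and 25.3, 227 and 528 CPM in wild type. Guca2b, which encodes uroguanylin, was at 54.3, 799.9 and 1885 CPM, 38.8, 590.3 and 993 CPM, and 20.9, 929.8 and 2636 CPM. The villus tip list summed to 607, 1109 and 2380.0 CPM, 500.2, 878 and 1936 CPM, and 351, 1103 and 2686 CPM. The wild-type Apoa-dominant members include cells of the ileal pattern. Krt20 was at 760 CPM in the 27 wild-type members of that pattern, against 162 CPM in the 196 with 0 ileal UMIs. Malat1 was at 3556, 7963 and 24344 CPM with DMSO, and at 3996, 8429 and 22741 CPM and 4169, 9949 and 24600.4 CPM in the untreated reporter and wild type. The median UMIs per cell were 19393, 15558.5 and 6559 with DMSO, 18405, 14600.5 and 11481 in the untreated reporter and 20514.5, 13067 and 11192.5 in wild type. Their part in the gene differences was not tested.

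Regional genes behaved differently by library. In the reporter libraries Gata4 was at 35.2, 36.5 and 48.5 CPM with DMSO and 35.2, 33.3 and 37.0 CPM without, from Rbp2-dominant to Apoa-dominant members. In wild type it was at 42.9, 32.8 and 9.33 CPM. Fabp6 in the Apoa-dominant members was at 43.2 and 28.1 CPM in the DMSO and untreated reporter libraries and at 790.3 CPM in wild type, where these members include cells of the ileal pattern described above. Isx was at 105, 115 and 82.5 CPM with DMSO and at 104 to 114 CPM in all groups of the other 2 libraries.

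**Figure D5:**
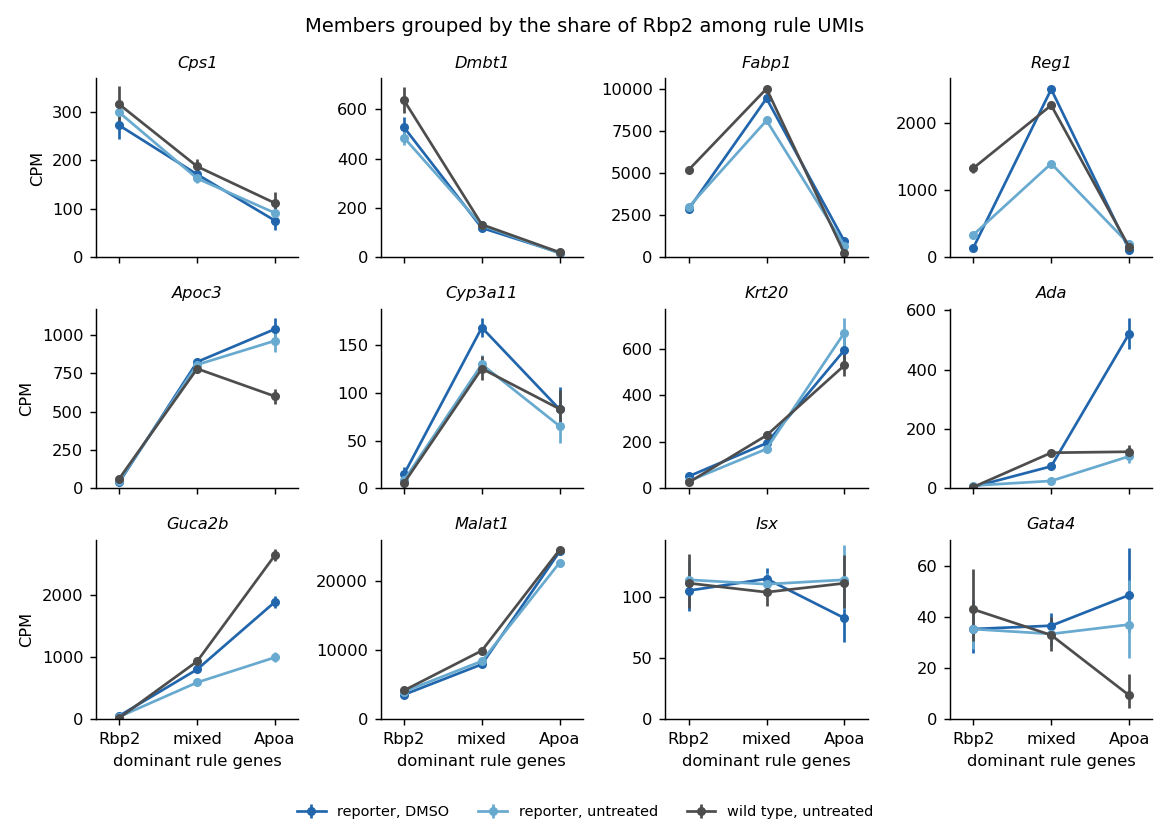
Levels of 12 genes (CPM, vertical) in Rbp2-dominant, mixed and Apoa-dominant members (horizontal) of 3 libraries, with exact 95% Poisson intervals and hormone-holding members left out. Dmbt1 and Cps1 are highest in Rbp2-dominant, Fabp1 and Reg1 in mixed and Krt20 and Malat1 in Apoa-dominant members of every library.

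Members with DMSO and untreated reporter members differed at least 2-fold in few genes. Of 9783 genes with at least 50 UMIs over both, 37 (0.378%) were at least 2-fold higher in DMSO than in untreated reporter members and 24 (0.245%) at least 2-fold lower. Without the hormone-holding members 14 were higher and 21 lower. Hormone genes led both directions, with Ghrl at 14.1-fold higher, Gip 3.599-fold higher and Nts at a ratio of 0.0361. The hormone-holding members held 95.1% of Ghrl UMIs in DMSO members and 31.1% in untreated reporter members. For Gip they held 99.6% and 98.9%, so these ratios rest on few cells. The 4 marker genes differed by less than 2-fold, with Apoa1, Apoa4, Rbp2 and Fabp1 at 3387 against 2725, 1081 against 799.5, 3790.4 against 3333 and 7561 against 6269 CPM.

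Ada, adenosine deaminase of the upper villus, was at 99.4 CPM in DMSO members against 27.7 CPM in untreated reporter members, 3.59-fold higher (3.104 to 4.17). It was at 103 against 27.2 CPM without the hormone-holding and ileal-pattern members, with 108 CPM in wild-type members likewise reduced, and over all wild-type members it was at 140.3 CPM. Within the Apoa-dominant members Ada was at 521 CPM with DMSO against 108 CPM in the untreated reporter and 123 CPM in wild type. Sprr2f, a cornified envelope gene, was at 10.9 against 1.67 CPM in DMSO and untreated reporter members, and Ang4, a Paneth cell ribonuclease, at 9.08 against 2.62 CPM. Reg1 was at 1850.4 against 1063 CPM, 1.74-fold higher. Each of these rests on 1 library per condition.

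Between the untreated reporter and wild type, 34 of 9446 genes (0.36%) were at least 2-fold higher in reporter members and 158 (1.67%) at least 2-fold lower. Without the hormone-holding and ileal-pattern members these counts were 42 and 101. Ileal genes were among the lower ones. Fabp6 was at 5.61 CPM in reporter members against 156 CPM in wild-type members, or 5.49 against 17.5 CPM without those cells. Tmigd1, a membrane protein gene of the epithelium, was at 4.53 against 184 CPM, or 0.854 against 71.0 CPM without them. Hoxb9, a posterior homeobox gene, was at 0.239 against 21.2 CPM, or 0.244 against 13.3 CPM without them. Hoxb9 and Tmigd1, which the rule did not use, were thus lower in reporter members in both versions. So was Fabp6, but the rule and the second version both limit its level in members.

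The gene Xist, which is transcribed from the inactive X chromosome of female cells, was at 0.224 CPM in DMSO members and 0.239 CPM in untreated reporter members (2 UMIs each), against 244 CPM in wild-type members. The 2 reporter libraries and the wild-type library thus differed in Xist as well as in the reporter, and the 2 cannot be told apart here. Higher in reporter members were Ctrb1, a chymotrypsinogen, at 126 against 28.7 CPM, a ratio of 4.38 (3.68 to 5.24), and AA467197 at 392 against 179.5 CPM. The markers themselves differed less, with ratios of 0.765 for Apoa1, 1.18 for Apoa4, 1.26 for Rbp2 and 0.887 for Fabp1. Gata4 was at 34.0 against 30.1 CPM and Onecut2 at 158 against 142 CPM in untreated reporter and wild-type members.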

How the data were processed

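Single-cell RNA was measured on the 10x Genomics platform in 4 libraries, 1 for each condition, with no replicates. The authors deposited UMI counts per gene and cell, made with Cell Ranger 3.1.0, and used Seurat 3.1.5, per the submitters' processing notes, which name GRCm38. The bulk RNA and ATAC samples of the series were not used here. A barcode was used as a cell if it had 500 genes or more, 1000 UMIs or more and no more than 20% of its UMIs from mitochondrial genes. The members and gene lists were chosen with earlier results of these data known.

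Counts were summed per library and class and scaled to 1000000 UMIs (CPM). A gene was compared with at least 50 UMIs over both classes and called at a 2-fold difference, with a floor of 3 UMIs for a class below it. Intervals are exact (Poisson, Clopper-Pearson for shares, conditional binomial for ratios) and cover counting error only. The counting scripts were tested on simulated data. Named genes were the rule genes and Fabp1, up to 6 members of each list with the largest ratios against ileal-type cells, list members of at least 1000 CPM, the 15 highest and 15 lowest ratios against ileal-type cells, and the 10 highest and 10 lowest between libraries, of which the text gives a selection; genes outside this rule were named after their values were seen. Doublets were kept: Scrublet called 831 cells in the Isx-9 library but 0, 0 and 1 in the DMSO, untreated reporter and wild-type libraries, where it did not work, so the 8% of cells with the highest scores were left out as an alternative. Promoters and gene positions came from RefSeq on GRCm38.p6. Python 3.11.15, numpy 2.4.6, scipy 1.17.1, pandas 2.3.3, scanpy 1.11.5 and matplotlib 3.10.9 were used.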

Additional observations from a re-analysis of the deposited data

How the results depend on the processing

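The Isx-9 library held 0 members under every setting that was run except a minimum of 10 summed UMIs, where 1 cell (0.00998%) met the rule. The shares in the other libraries depended on the rule. At a minimum of 10 UMIs they were 9.18%, 8.20% and 5.48% in DMSO, untreated reporter and wild type, at 40 UMIs 4.34%, 3.68% and 2.55%, at most 10% mitochondrial UMIs 5.82%, 5.24% and 3.43%, and thinned to 5000 UMIs 3.37%, 2.61% and 1.76%. With at least 1000 genes and 5000 UMIs the DMSO share was 5.85% and the wild-type share 3.27%. Leaving out both the hormone-holding and the ileal-pattern members, an alternative chosen after seeing the data, gave 3.43% in wild type. DMSO was highest and wild type lowest in each of these settings that gave all 3 shares.

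Counts of genes, and which direction held more of them, moved with the settings. Of the 39 genes higher in members than in ileal-type cells, the count was 102 centred on the median ratio, 16 at 3-fold, 350 in wild type alone and 323 there without hormone-holding members, and 57 to 70 with a library left out. The 87 lower genes became 14 at 200 UMIs, 280 at 10 UMIs, 136 with means per cell, 34 centred, 16 at 3-fold, 166 in wild type alone and 163 there without hormone-holding members. With a library left out the lower genes numbered 98 to 2619, the highest without wild type, where 7 and 3 ileal-type cells remain. Against cells with neither marker set, the 827 higher genes were 1478 at 10 UMIs and 451 at 3-fold (864 to 940 with a library left out), and the 1581 lower genes were 931 centred and 452 at 3-fold (1714 to 2230).

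Between DMSO and untreated reporter members, the 37 higher genes were 9 at 200 UMIs, 275 at 10 UMIs, 63 with means per cell, 13 at 3-fold, 14 without hormone-holding members and 15 without both kinds. The 24 lower genes were 6, 233, 75 and 4 under the first 4 of these. Between untreated reporter and wild-type members, the 34 higher genes were 10, 218, 91 and 9 under the same 4, and the 158 lower genes 44, 505, 253 and 50, or 101 without both kinds. Apart from the hormone-holding settings, the cause of these shifts was not tested. No paired analysis was possible because each condition is 1 library. The comparison of Isx-9 with DMSO members was not run, as there were 0 Isx-9 members, and leaving out the doublets that Scrublet called was not run, as it called almost none in 3 libraries. Depth limits the low genes: a class at 0 UMIs is compared only at the floor of 3.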
